A study of Mus musculus with 16 samples.

Results

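The genes described here are 50 mouse genes of the cell cycle and of DNA replication, taken from the 24681 gene symbols of a count table by exact match of the symbol. All 50 were found, and all 50 passed the filter on low counts. Of these, 20 act in DNA replication and its control and 30 act in mitosis, and the members were sorted into these classes and into 7 roles by their known function.

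The 16 libraries come from whole AU565(pv) tumours, a human HER2-positive breast cancer line that had been injected into mammary fat pads of SCID mice. These mice lack functional B and T lymphocytes. Each tumour mixes human cancer cells with mouse stroma, epithelium and immune cells, and the table holds reads counted on mouse genes. Tumours of 20 to 25 mm2 were treated by intraperitoneal injection and harvested on day 2, with 4 mice in each of 4 groups. Vehicle mice received D5W on days 0 and 1 and PBS on day 0, trastuzumab mice received D5W and, on day 0, 10 mg/kg of the HER2 antibody, panobinostat mice received 15 mg/kg of the histone deacetylase inhibitor on days 0 and 1 with PBS, and combination mice received both drugs. The sample labels place trastuzumab on day 0, while the series text gives another day. All mice carried the same tumour line, which is 1 cell line, and no group is free of tumour or of injection. The design asks what each drug, and the combination of both, changes in the host cells of the tumour.

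A cell licenses its replication origins in G1 by loading the Mcm2-7 ring, the core of the replicative helicase. Cyclin E with its kinase and the E2F factors then bring the cell into S phase, where Pcna, the sliding clamp, holds polymerases on DNA. Cyclin B with Cdk1, the Aurora and Polo kinases and the spindle checkpoint later carry it through mitosis. Genes of the S phase wave are known targets of E2F factors, and genes of the G2 and mitosis wave are known for CCAAT boxes and cell cycle homology regions in their promoters.

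Total counts were between 4848244 and 8140782 per library, and the 50 members took 0.0991% to 0.2% of them. No pair of libraries within a group matched within counting noise (chi-square over its degrees of freedom 4.06 to 34.18). Levels are given as TMM-scaled CPM, the count of a gene over the scaled library total which makes libraries of unequal depth comparable, and differences are on the log2 scale with a standard error (SE, approximate) from edgeR's quasi-likelihood fit of all 16 libraries. A gene is called at an adjusted p under 0.05 over 15610 tested genes. Whether a lower or higher count reflects more cycling host cells or more RNA per cell cannot be told apart in whole tumours. The share of human reads on conserved genes was not measured.

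Promoters are shown for 6 members, 2 replication genes that were called (Mcm5, Mcm6), and 4 mitosis genes that differ in spread and in response (Mki67, Ccnb2, Top2a, Cks2). Each line holds the 250 bases before the start of the gene in RefSeq on build GRCm38.p6, read 5′ to 3′ on the strand of the gene. Capitals mark the CCAAT box (CCAAT or ATTGG), the cell cycle homology region (TTTGAA or TTCAAA) and 4 E2F words (TTTGGCGC, TTTGCCGC, TTTCGCGC, TTTCCCGC, or their reverse complements), and overlapping matches run together.
Mcm5 (chr8:75109259-75109508, plus strand): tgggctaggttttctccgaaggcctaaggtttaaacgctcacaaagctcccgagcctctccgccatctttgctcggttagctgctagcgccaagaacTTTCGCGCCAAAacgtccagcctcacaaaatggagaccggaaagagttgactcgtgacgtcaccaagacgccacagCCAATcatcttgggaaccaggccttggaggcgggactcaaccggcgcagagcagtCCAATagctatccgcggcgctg
Mcm6 (chr1:128359706-128359955, minus strand): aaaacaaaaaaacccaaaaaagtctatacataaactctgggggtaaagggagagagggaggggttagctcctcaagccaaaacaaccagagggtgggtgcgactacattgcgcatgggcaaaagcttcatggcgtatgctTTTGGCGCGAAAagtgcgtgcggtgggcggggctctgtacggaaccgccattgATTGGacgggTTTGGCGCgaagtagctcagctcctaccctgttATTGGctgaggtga
Mki67 (chr7:135716380-135716629, minus strand): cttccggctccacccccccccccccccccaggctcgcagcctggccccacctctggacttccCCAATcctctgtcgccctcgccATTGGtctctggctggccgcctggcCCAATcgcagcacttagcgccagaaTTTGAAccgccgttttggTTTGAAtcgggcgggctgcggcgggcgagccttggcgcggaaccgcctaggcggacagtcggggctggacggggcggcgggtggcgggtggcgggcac
Ccnb2 (chr9:70421555-70421804, minus strand): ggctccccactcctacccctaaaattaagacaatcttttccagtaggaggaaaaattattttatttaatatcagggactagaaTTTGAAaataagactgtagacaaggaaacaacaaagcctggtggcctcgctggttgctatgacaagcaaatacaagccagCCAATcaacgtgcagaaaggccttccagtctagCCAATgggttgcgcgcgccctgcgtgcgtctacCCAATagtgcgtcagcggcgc
Top2a (chr11:99024190-99024439, minus strand): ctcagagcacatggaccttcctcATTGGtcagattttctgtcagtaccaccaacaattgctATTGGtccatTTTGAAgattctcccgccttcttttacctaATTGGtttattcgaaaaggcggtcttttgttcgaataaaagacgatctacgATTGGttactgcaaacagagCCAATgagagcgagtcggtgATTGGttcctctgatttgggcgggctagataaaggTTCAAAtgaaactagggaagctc
Cks2 (chr13:51644982-51645231, plus strand): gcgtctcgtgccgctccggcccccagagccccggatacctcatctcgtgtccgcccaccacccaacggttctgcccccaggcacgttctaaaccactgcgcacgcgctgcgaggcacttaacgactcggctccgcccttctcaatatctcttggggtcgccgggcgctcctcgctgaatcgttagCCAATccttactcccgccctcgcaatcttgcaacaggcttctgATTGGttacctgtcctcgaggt
The Mcm5 window held 2 CCAAT boxes and 2 overlapping E2F words, and the Mcm6 window held 2 CCAAT boxes and 3 E2F words. Mki67 showed 3 CCAAT boxes and 2 cell cycle homology regions with no E2F word, Ccnb2 showed 3 and 1, and Top2a showed 6 and 2. In Cks2 there were 2 CCAAT boxes and neither of the other motifs. Promoters of 42 members were found in the RefSeq table. A CCAAT box was present in 69% of them against 34.5% of 27025 genes of the table, in 76% of 25 mitosis promoters and in 58.8% of 17 replication promoters. The E2F words were present in 11.9% of member promoters against 1.91% of all, in 4 of 17 replication promoters and in 1 of 25 mitosis promoters. The cell cycle homology region stood in 21.4% of member promoters against 16.3% of all, in 28% of the mitosis and 11.8% of the replication promoters. Annotated exons of any gene covered all 250 bases of some windows, those of E2f1, Chek1, Mcm7, Nusap1 and Tacc3, and 0 bases of the 6 shown. A missing motif in a window covered by exons says little about the promoter. These matches are letters in a window and do not show that a factor binds.

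Members were higher where panobinostat had been given. The main comparison sets the mean of the panobinostat and combination groups against the mean of the vehicle and trastuzumab groups, 8 libraries against 8. The count table divides along the same line, with 1327 symbols lacking a value in the 8 panobinostat-given libraries. A difference in how the libraries were counted or tabulated therefore cannot be told apart from the drug. In this comparison 13 of 50 members rose and 0 fell, where 2.13% of all tested genes were called higher. The difference was positive for 49 of 50 members, against 51.3% of all tested genes, and its median was 0.42 on the log2 scale, against 0.0050 over all tested genes. Of the 13 called members, 10 belong to the replication class and 3 to the mitosis class. Cks2 was the member with a negative difference, which turned positive without trastuzumab mouse 20, panobinostat mouse 7 or combination mouse 11 (0.057, 0.020 and 0.0010).

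**Figure D1:**
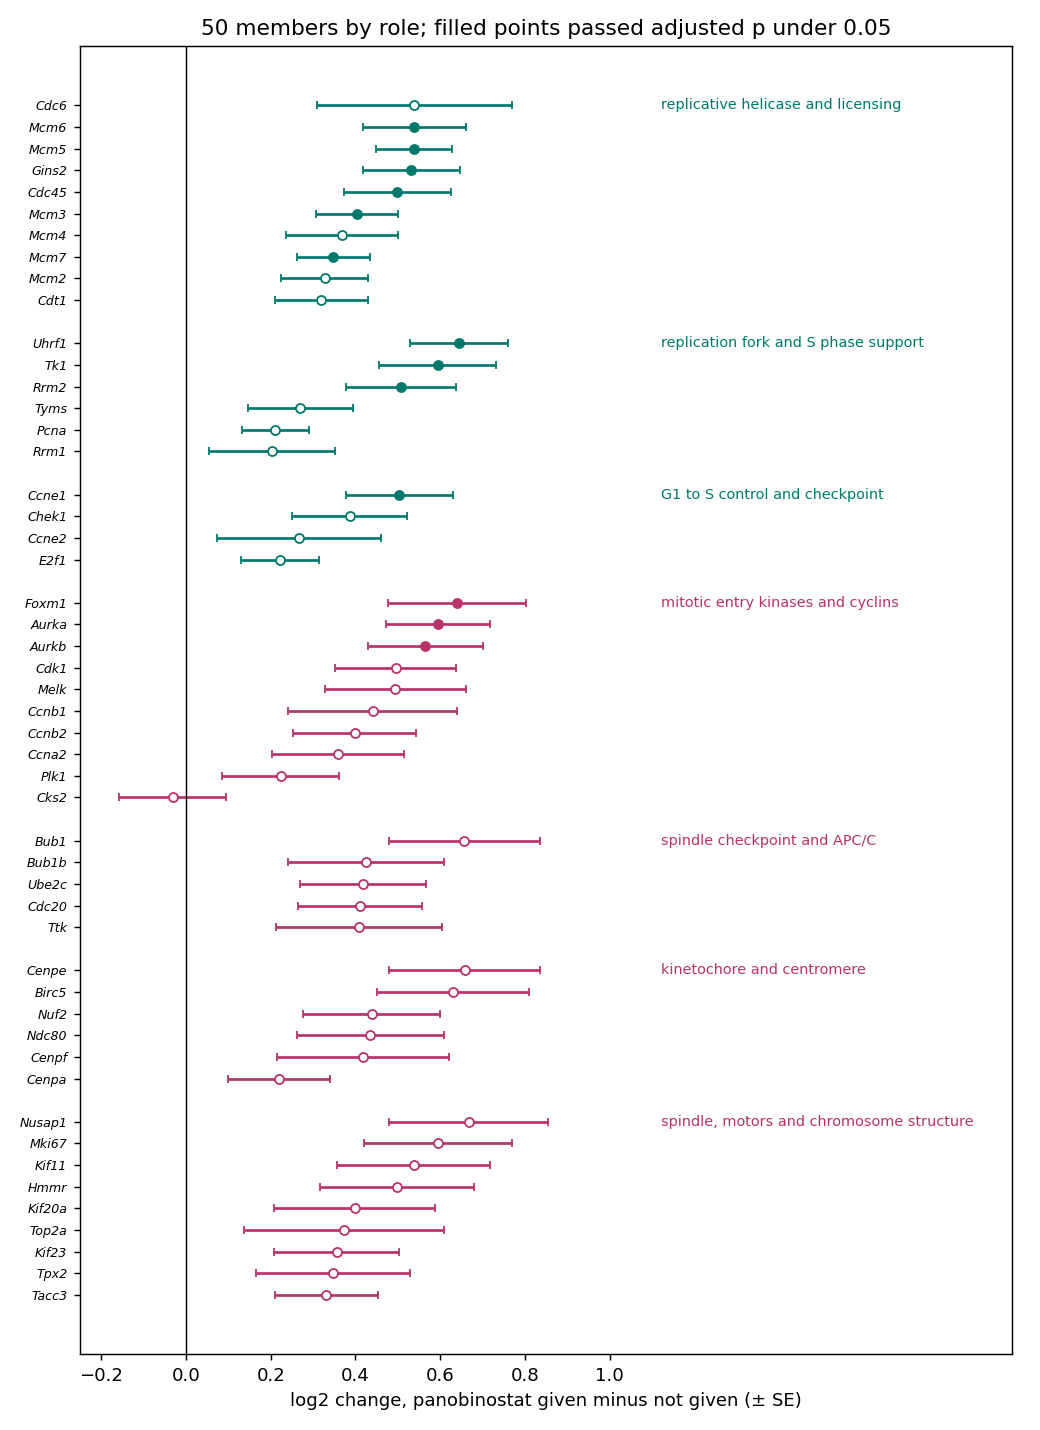
Log2 difference (x axis, ± SE) of each of the 50 members between the 8 panobinostat-given libraries and the 8 others, sorted by role and size, with replication roles in green and mitosis roles in magenta. Filled points passed an adjusted p under 0.05. The points lie to the right of 0 for 49 members, and Cks2 alone lies to the left.

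The size of this count changed when 1 mouse was left out. The share of all tested genes called higher also fell in each of these fits, from 2.13% to between 1.47% and 2.03%. The count of members was 5 without panobinostat mouse 8, where 1.64% of all genes were called higher. It was 6 without vehicle mouse 6, trastuzumab mouse 12 or 24, panobinostat mouse 4, or combination mouse 2 or 16. It was 7 without vehicle mouse 3, 8 without vehicle mouse 21 or panobinostat mouse 7, and 16 without combination mouse 22. Mcm5, Mcm6, Gins2, Uhrf1 and Aurka were called in each of the 16 fits that left out 1 mouse and under each of 9 other settings. The other 8 called members lost their call in at least 5 of those 16 fits. With a score of luminal epithelial markers as a covariate, 8 members were called, where 1.89% of all genes were called higher.

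The helicase and licensing genes gave the most calls, 6 of 10. Mcm5, a subunit of the Mcm2-7 ring, was counted at 26.4, 23.8, 25.5 and 26.0 CPM in vehicle tumours and at 23.7, 31.0, 26.6 and 24.4 CPM in trastuzumab tumours. It reached 31.3, 35.6, 46.1 and 33.2 CPM in panobinostat tumours and 41.5, 38.2, 41.3 and 34.3 CPM in combination tumours. All 8 panobinostat-given libraries were above all 8 others, though the lowest of them (31.3 CPM) was close to the highest trastuzumab library (31.0 CPM). Mcm5 rose by 0.54 ± 0.09 (SE; edgeR adjusted p = 0.00286), a ratio of 1.45. Its gene lies at chr8:75109569-75128439 on the plus strand of GRCm38.

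Mcm6, another subunit of the ring, was at 44.3, 32.4, 45.3 and 34.4 CPM with vehicle and at 30.6, 48.4, 36.2 and 39.3 CPM with trastuzumab. It was at 62.3, 47.3, 66.7 and 46.5 CPM with panobinostat and at 62.4, 52.9, 68.2 and 45.6 CPM with the combination. The groups overlapped, with trastuzumab mouse 15 at 48.4 CPM above 3 of the panobinostat-given libraries. Mcm6 rose by 0.54 ± 0.12 (edgeR adjusted p = 0.0203). Mcm3 rose by 0.40 ± 0.10 (edgeR adjusted p = 0.0302), from a median of 53.1 CPM to 67.2 CPM, and Mcm7 rose by 0.35 ± 0.09 (edgeR adjusted p = 0.0341), from 58.4 to 70.5 CPM. Mcm2 and Mcm4 had positive differences of 0.33 ± 0.10 (edgeR adjusted p = 0.113) and 0.37 ± 0.13 (edgeR adjusted p = 0.186) and were not called. In combination mouse 22 Mcm2 was at 28.0 CPM and Mcm4 at 42.4 CPM, each the lowest of the panobinostat-given libraries and inside the range of the other libraries.

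Gins2, a subunit of the GINS complex of the active helicase, rose by 0.53 ± 0.12 (edgeR adjusted p = 0.0159), and Cdc45, its partner in that helicase, by 0.50 ± 0.13 (edgeR adjusted p = 0.0394). Exons of Gins2 share 2758 of 4097 bases with exons of Gse1, those of Mcm7 share 385 bases with Cops6 and Ap4m1, and those of Tk1 share 83 bases with Afmid. Exons of Cdc45 also overlap Ufd1, and those of Foxm1 overlap Tex52 and Gm44596, symbols not among those analysed. Of uncalled members, Ccna2 shares 510 bases with Exosc9 and Ccne2 609 bases with Ints8. Reads in such stretches cannot be assigned without knowing how overlaps were counted, so these values are uncertain. Cdt1 and Cdc6, which load the ring, had differences of 0.32 ± 0.11 and 0.54 ± 0.23 and were not called. Cdc6 had the lowest level per length of all members, 0.648 CPM per kb of exon.

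Among the genes of the fork and of S phase supply, 3 of 6 were called. Uhrf1, which carries DNA methylation over to new strands, was at 10.7, 10.4, 11.3 and 10.8 CPM in vehicle tumours and at 10.6, 15.97, 11.7 and 10.4 CPM in trastuzumab tumours. It was at 16.8, 14.8, 19.5 and 15.6 CPM in panobinostat tumours and at 22.7, 22.1, 17.0 and 15.5 CPM in combination tumours. Trastuzumab mouse 15 lay inside the panobinostat-given range, and the other libraries without the drug lay below it. Uhrf1 rose by 0.64 ± 0.12 (edgeR adjusted p = 0.00475). Tk1, thymidine kinase, rose by 0.59 ± 0.14 (edgeR adjusted p = 0.0251), and Rrm2, the regulated subunit of ribonucleotide reductase, by 0.51 ± 0.13 (edgeR adjusted p = 0.0426). Rrm1, its large subunit, had a difference of 0.20 ± 0.15 (edgeR adjusted p = 0.639), and Tyms, thymidylate synthase, one of 0.27 ± 0.12 (edgeR adjusted p = 0.346).

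Pcna was not called. It was at 61.2, 64.9, 73.9 and 62.8 CPM with vehicle and at 61.9, 69.1, 66.0 and 60.1 CPM with trastuzumab. With panobinostat it was at 66.0, 64.4, 76.0 and 76.0 CPM, and with the combination at 83.1, 79.1, 64.0 and 94.0 CPM. The highest value was that of combination mouse 22, the mouse with the lowest Mcm2 and Mcm4 of its group. Pcna had a difference of 0.21 ± 0.08 (edgeR adjusted p = 0.214), with the smallest SE of the 6 genes of its role.

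Of the G1 to S control genes, 1 of 4 was called. Ccne1, cyclin E1, rose by 0.50 ± 0.13 (edgeR adjusted p = 0.0364) from a median of 4.27 CPM to 6.20 CPM. This call was kept in 2 of 16 fits that left out 1 mouse. Chek1, the replication checkpoint kinase, had a difference of 0.39 ± 0.14 (edgeR adjusted p = 0.171). E2f1, an activating E2F factor, had one of 0.22 ± 0.09 (edgeR adjusted p = 0.271), and Ccne2, cyclin E2, one of 0.27 ± 0.19 (edgeR adjusted p = 0.635).

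Among the 10 genes of mitotic entry, 3 rose. Aurka, the Aurora kinase of the centrosome, was at 7.04, 6.63, 5.21 and 6.09 CPM in vehicle tumours and at 5.21, 7.12, 6.07 and 6.93 CPM in trastuzumab tumours. It was at 12.2, 8.55, 10.4 and 9.02 CPM in panobinostat tumours and at 11.02, 7.65, 8.79 and 8.55 CPM in combination tumours. As for Mcm5, the 8 panobinostat-given libraries were all above the 8 others. Aurka rose by 0.59 ± 0.12 (edgeR adjusted p = 0.0116). These 2 were the members with such a full separation, where 0.551% of all tested genes had one in that direction.

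Aurkb, the Aurora kinase of the centromere, rose by 0.57 ± 0.14 (edgeR adjusted p = 0.0306), and Foxm1, a factor of the G2 and mitosis genes, by 0.64 ± 0.16 (edgeR adjusted p = 0.0404). Foxm1 was at 12.1, 7.89, 12.3 and 16.1 CPM with vehicle, at 12.6, 14.9, 14.5 and 8.84 CPM with trastuzumab, at 22.4, 17.3, 22.2 and 16.9 CPM with panobinostat and at 21.2, 15.7, 25.8 and 13.7 CPM with the combination. The groups overlapped through combination mice 11 and 22. Cdk1, the mitotic kinase, had a difference of 0.49 ± 0.14 (edgeR adjusted p = 0.0771), Ccnb1, cyclin B1, one of 0.44 ± 0.20 (edgeR adjusted p = 0.336), Ccnb2, cyclin B2, one of 0.40 ± 0.14 (edgeR adjusted p = 0.19), Ccna2, cyclin A2, one of 0.36 ± 0.16 (edgeR adjusted p = 0.31) and Plk1, the Polo kinase, one of 0.22 ± 0.14 (edgeR adjusted p = 0.541).

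Cks2, a small subunit that binds Cdk1, stood apart in level and in difference. It was at 207, 206, 148 and 180 CPM with vehicle and at 131, 164, 233 and 163 CPM with trastuzumab. It was at 229, 153, 236 and 169 CPM with panobinostat and at 169, 126, 161 and 169 CPM with the combination. The ranges covered one another, and the difference was -0.031 ± 0.13 (edgeR adjusted p = 0.96). Per length it was the highest member, at 256.7 CPM per kb of exon, followed by Pcna at 29.2 and Top2a at 20.1 CPM per kb, and 98.4% of the 14584 tested genes with a length lay below it.

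No gene of the spindle checkpoint, the kinetochore or the spindle was called, 0 of 20 by edgeR and by limma voom, while DESeq2 called 5 of them (Mki67, Bub1, Birc5, Cenpe and Nusap1). With 2 settings added after the data were seen, limma voom with sample weights called 2 and edgeR with the adipocyte score as a covariate called 13. Their differences ran from 0.22 to 0.67, beside 0.35 to 0.64 for the 13 called members. At an unadjusted p under 0.05 there were 4 of 5 checkpoint genes, 4 of 6 kinetochore genes and 6 of 9 spindle and chromosome genes. The share of all tested genes at that level is not given. Nusap1, a spindle protein, had the largest difference of all members, 0.67 ± 0.19 (edgeR adjusted p = 0.0683). Cenpe, a kinetochore motor, had one of 0.66 ± 0.18 (edgeR adjusted p = 0.0563), Bub1, a checkpoint kinase, one of 0.66 ± 0.18 (edgeR adjusted p = 0.0567) and Birc5, survivin, one of 0.63 ± 0.18 (edgeR adjusted p = 0.0736). Nuf2 of the Ndc80 complex (0.44 ± 0.16), Kif11, a spindle motor (0.54 ± 0.18), Ube2c (0.42 ± 0.15) and Cdc20 (0.41 ± 0.15), which both serve the anaphase-promoting complex, were not called either. Exons of Nusap1 share 172 bases with Oip5, those of Ube2c 592 bases with Tnnc2 and those of Cdc20 53 bases with Elovl1.

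Mki67, the proliferation antigen Ki-67, was at 42.9, 45.8, 52.9 and 26.5 CPM with vehicle and at 24.9, 56.8, 45.2 and 46.3 CPM with trastuzumab. It was at 57.1, 61.2, 75.5 and 51.0 CPM with panobinostat and at 87.5, 48.1, 79.5 and 56.2 CPM with the combination. The lowest panobinostat-given libraries overlapped with vehicle mouse 21 and trastuzumab mouse 15. Mki67 had a difference of 0.60 ± 0.17 (edgeR adjusted p = 0.0816). Top2a, the topoisomerase of chromosome condensation, ran from 70.3 CPM in vehicle mouse 6 to 222.4 CPM in vehicle mouse 3 and from 107.1 CPM in combination mouse 22 to 307.6 CPM in combination mouse 16. Its difference of 0.37 ± 0.24 (edgeR adjusted p = 0.554) was smaller than its SD of 0.56 around the group mean.

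**Figure D2:**
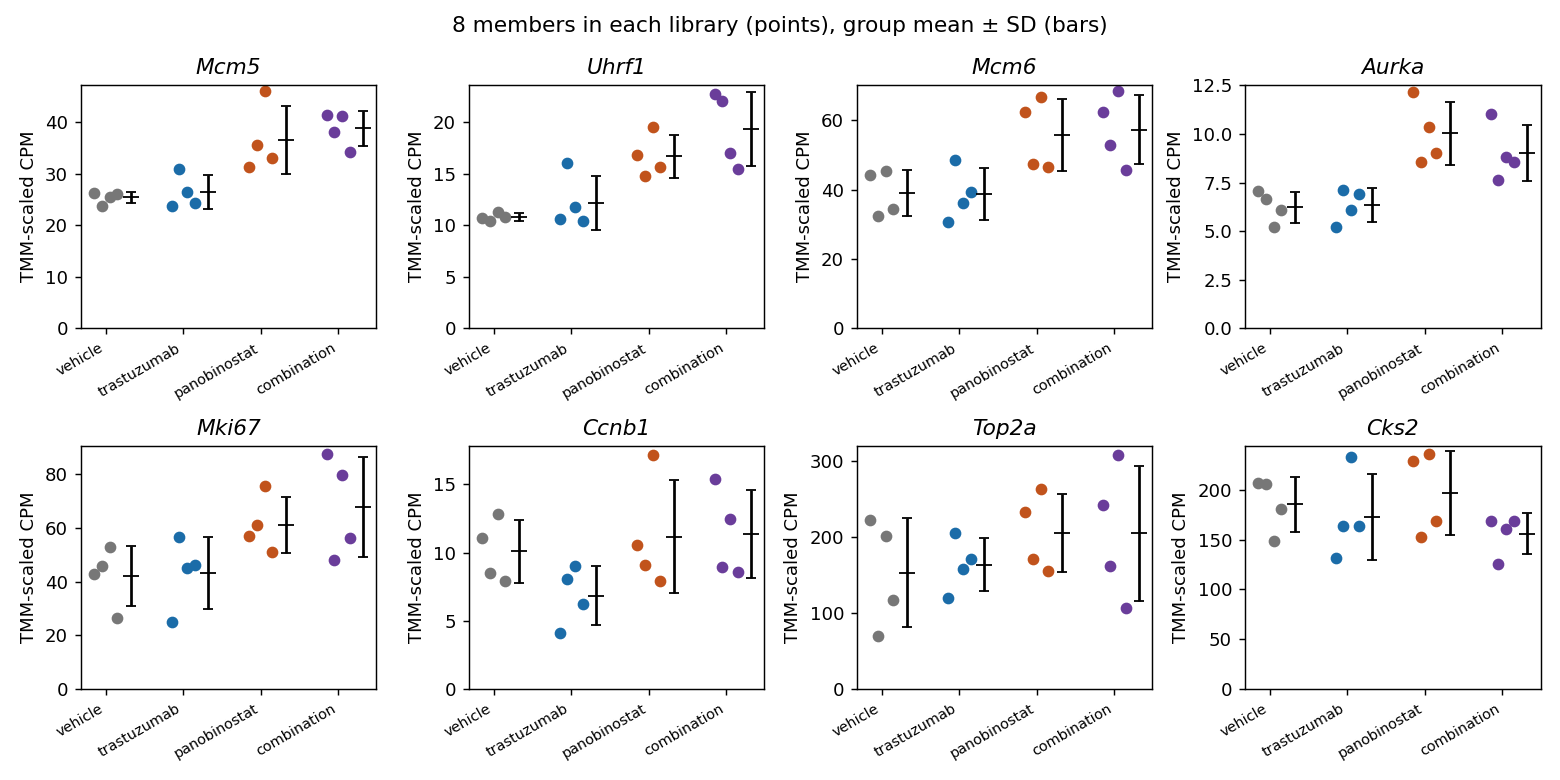
TMM-scaled CPM (y axes, from 0) of 8 members in each library, as points, with the group mean and SD over 4 mice as bars. Mcm5 and Aurka separate the panobinostat-given libraries from the others, while Mki67, Ccnb1, Top2a and Cks2 overlap.

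Replication and mitosis genes had like differences, and mitosis genes varied more between mice. The median difference was 0.40 in the replication class and 0.43 in the mitosis class, while the median SE was 0.122 and 0.17. The order of these medians turned without combination mouse 2 (0.35 and 0.34), panobinostat mouse 8 (0.40 and 0.37) or vehicle mouse 29 (0.40 and 0.39). The SD of log2 CPM around the group mean had a median of 0.227 over the 20 replication genes, 0.351 over the 30 mitosis genes and 0.251 over all tested genes. After the counting part was taken away, these medians were 0.187, 0.314 and 0.181. Top2a had the largest SD of all members, 0.562, and Pcna the smallest, 0.151. The excess of replication calls depended on the method. DESeq2 called 9 of 20 replication and 9 of 30 mitosis members, where 2.54% of all genes were called higher. With a score of adipocyte markers as a covariate, an alternative added after the data were seen, 15 of 20 and 21 of 30 were called, where 3.65% of all genes were called higher.

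**Figure D3:**
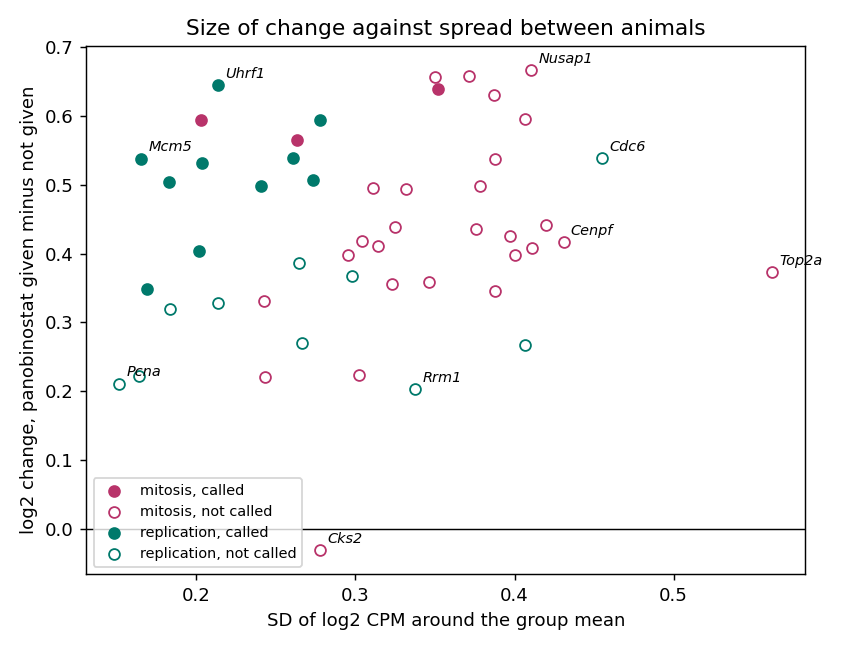
Log2 difference between panobinostat-given and other libraries (y axis) against the SD of log2 CPM around the group mean (x axis) for the 50 members. Called members (filled) have an SD of 0.165 to 0.352, where Foxm1 is the highest, and uncalled members with a low SD, such as Pcna, have a small difference.

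The mean log2 CPM of the 20 replication genes was 4.05 to 4.41 in the 8 libraries without panobinostat and 4.52 to 4.88 in the 8 with it, and these ranges did not overlap. For the 30 mitosis genes the ranges were 3.42 to 4.07 and 3.92 to 4.67, and they overlapped. The difference between both means was 0.42 ± 0.14 without the drug and 0.39 ± 0.15 with it (SD, n = 8 each), with ranges of 0.29 to 0.64 and 0.18 to 0.65. The Mcm and Pcna genes taken alone exceeded the mitosis mean by 1.61 ± 0.16 without and 1.56 ± 0.18 with the drug (SD, n = 8 each). The shift in these 2 differences with the drug was smaller than the spread between mice, and no test was made on them.

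**Figure D4:**
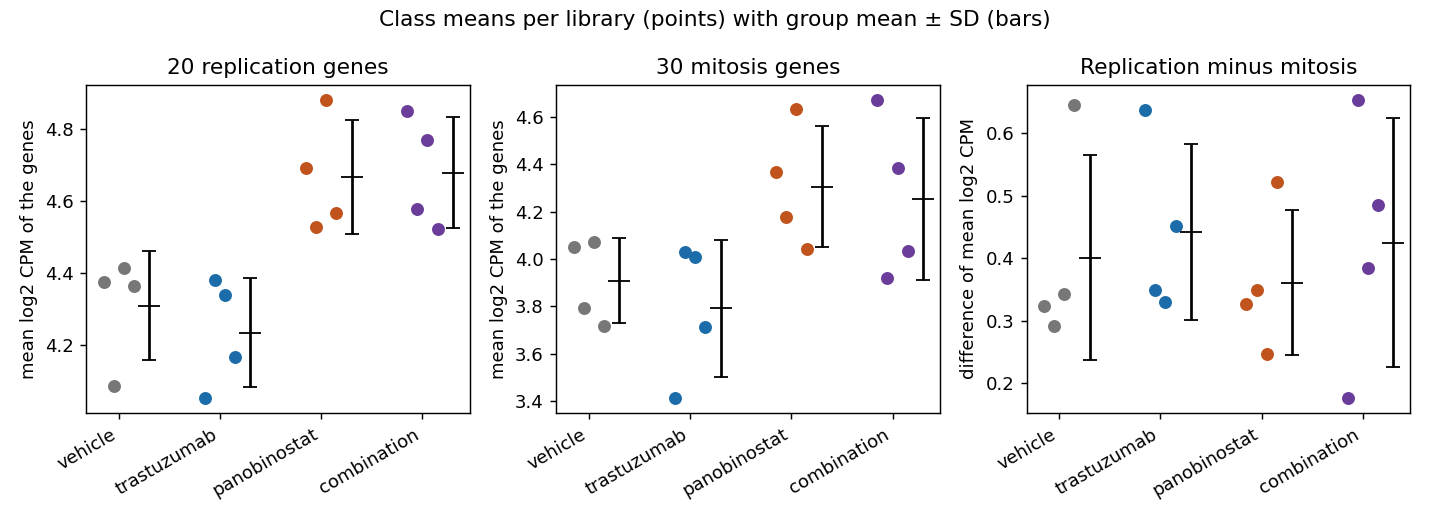
Mean log2 CPM of 20 replication genes, of 30 mitosis genes, and the difference of both (y axes) in each library, as points, with the group mean and SD over 4 mice as bars. The replication means of the panobinostat and combination groups lie above those of the other groups, and the differences overlap in all 4 groups.

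Single group comparisons gave fewer calls. Between panobinostat and vehicle, 0 of 50 members were called by edgeR, where 0.141% of all genes were called higher. DESeq2 called 1, where 0.666% of all genes were called higher, and limma voom called 0, with or without sample weights. All 50 differences were positive, with a median of 0.39 against 0.012 over all tested genes. Without panobinostat mouse 8, 46 were positive. At an unadjusted p under 0.05 there were 20. Between the combination and trastuzumab, 0 of 50 were called by edgeR, where 0.474% of all genes were called higher. DESeq2 called 3, where 1.07% of all genes were called higher. Limma voom called 0, or 3 with sample weights, where 0.73% of all genes were called higher. Here 49 differences were positive, with a median of 0.47 against 0.0072 over all tested genes, and 29 had an unadjusted p under 0.05. The share of all tested genes at an unadjusted p under 0.05 is not given for either comparison. Without combination mouse 2 the median of the mitosis class went from 0.47 to 0.27, below that of the replication class (0.41 and 0.36). These 2 comparisons share no library, and 49 members had a positive difference in both. Mcm5 differed by 0.52 ± 0.13 in the first (edgeR adjusted p = 0.119) and by 0.55 ± 0.13 in the second (edgeR adjusted p = 0.0552).

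Between the combination and vehicle, 2 of 50 members rose, where 1.84% of all genes were called higher. Uhrf1 rose by 0.84 ± 0.16 (edgeR adjusted p = 0.00981) and Mcm5 by 0.61 ± 0.13 (edgeR adjusted p = 0.0138). Without vehicle mouse 6 the Mcm5 call was lost and 1 member was called, where 1.14% of all genes were called higher. With the luminal score as a covariate 0 were called, where 0.833% of all genes were called higher. The median of the 50 differences was 0.38. Without combination mouse 2 the median of the mitosis class went from 0.40 to 0.24, below that of the replication class (0.35 and 0.29).

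Trastuzumab gave no call among the members. Against vehicle, 0 of 50 were called by edgeR, DESeq2 and limma voom, as were 0% of all genes by edgeR, and 0 members had an unadjusted p under 0.05. The median difference was -0.084. In the comparison of the trastuzumab and combination groups with the vehicle and panobinostat groups, 0 of 50 were called by each of these tools. Of the members 0 had an unadjusted p under 0.05, and 0.167% of all genes were called higher by edgeR. The combination against panobinostat gave 0 calls among the members by the same tools and 0 at an unadjusted p under 0.05, with a median of -0.019. Of all genes, 0% were called by edgeR and 0.0897% were called higher by DESeq2. The interaction, the difference between the panobinostat effect with and without trastuzumab, likewise gave 0 calls and 0 at an unadjusted p under 0.05, with 0% of all genes called. Cdc6 had the largest interaction of all members, 0.90 ± 0.46 (edgeR adjusted p = 0.9999).

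Other genes of the same pathways were also called higher in the comparison of 8 against 8 libraries. Of 37 further replication genes 6 rose and 0 fell, with a median of 0.36. Among them were Timeless, a fork protection factor (0.43 ± 0.08, edgeR adjusted p = 0.00828), the histone chaperone genes Asf1b (0.64 ± 0.12) and Chaf1b (0.63 ± 0.13), Rad54l of recombination (0.66 ± 0.16) and Mcm10 of helicase activation (0.59 ± 0.15). Of 54 further mitosis genes 4 rose and 0 fell, with a median of 0.37, namely the condensin gene Ncaph (0.54 ± 0.13, edgeR adjusted p = 0.0321), Cdca3 (0.56 ± 0.14), Cdca5 of cohesion (0.68 ± 0.17) and Ckap2l (0.64 ± 0.16).

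Of 19 G1 cyclins, kinases and pocket protein genes, 4 rose and 0 fell. E2f8, an E2F repressor, rose by 0.88 ± 0.17 (edgeR adjusted p = 0.00945), from a median of 2.98 CPM to 5.41 CPM. Ccnd1, cyclin D1, rose by 0.43 ± 0.09, Rbl1, the pocket protein p107, by 0.44 ± 0.10 and Ccnd2, cyclin D2, by 0.47 ± 0.12. Ccnd1 also rose between the combination and vehicle, by 0.72 ± 0.13 (edgeR adjusted p = 0.00498). Of 8 genes of CDK inhibitors 0 were called by edgeR, DESeq2 or limma voom, and 0 had an unadjusted p under 0.05. Cdkn1a, the inhibitor p21 that histone deacetylase inhibitors are known to induce in many cultured cells, had a difference of 0.20 ± 0.10 (edgeR adjusted p = 0.416), Cdkn2c (p18) one of 0.19 ± 0.10 and Cdkn2d (p19) one of 0.12 ± 0.14.

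Many members were high or low in the same mice of a group. Panobinostat mouse 8 was the highest of its group for 39 of 50 members, and combination mouse 2 for 35. Trastuzumab mouse 15 was the highest for 29. Trastuzumab mouse 12 was the lowest for 34 members, panobinostat mouse 13 for 28, vehicle mouse 6 for 27 and combination mouse 22 for 25. The summed level of 7 adipocyte markers, of which 0 were called by edgeR, DESeq2 or limma voom and 0 had an unadjusted p under 0.05, was 5656 CPM in trastuzumab mouse 12, 7228 CPM in panobinostat mouse 13, 4360 CPM in vehicle mouse 6 and 5168 CPM in combination mouse 22, the highest sum of each group. It was 1264 CPM in panobinostat mouse 8, the lowest of its group, and 2709 CPM in combination mouse 2. In the vehicle, panobinostat and combination groups the mice with the 2 highest adipocyte sums had the 2 lowest means over the members, and in the trastuzumab group this held for mouse 12 but not for mouse 24, which had the second lowest mean over the members and the lowest sum, 1030 CPM. Trastuzumab mouse 15, with the second highest sum of its group, 1992 CPM, had the highest mean. All 7 adipocyte markers had a positive difference with panobinostat. The part of fat tissue in the members' values was not tested beyond the covariate above.

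**Figure D5:**
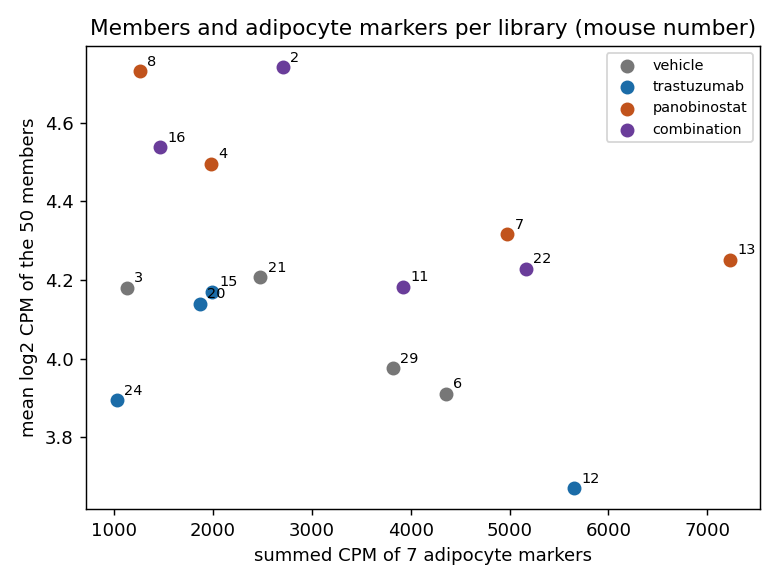
Mean log2 CPM of the 50 members (y axis) against the summed CPM of 7 adipocyte markers (x axis), 1 point for each library, numbered by mouse and coloured by group. Within the vehicle, panobinostat and combination groups the libraries with high sums have low means.

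Markers of other host cells also moved with panobinostat in the comparison of 8 against 8 libraries. Of 15610 tested genes 473 were called there by edgeR, 333 of them higher and the rest lower. All 5 tested erythroid markers fell, with summed levels of 240.3 to 1114 CPM in the groups without the drug and 78.4 to 204.4 CPM in those with it. Of 6 tested neutrophil markers 5 fell, from sums of 159.8 to 267.3 CPM to sums of 113.7 to 168 CPM. Of 8 fibroblast markers 2 fell, and of 11 tested natural killer cell markers 2 rose. Krt15 of 4 tested basal epithelial markers fell, while Fcgr1 of 10 macrophage markers and Vwf of 8 endothelial markers rose, named after their values were seen. Emr1, another macrophage marker, was called lower by DESeq2 and by limma voom with sample weights, but not by edgeR. Of 15 tested luminal epithelial markers 0 passed by edgeR, DESeq2 or limma voom (1 by unadjusted p under 0.05), and their sums were 816.1 to 1330 CPM without and 889.1 to 1361 CPM with the drug. No marker was at 0 in all libraries, and Ly6g, a defining neutrophil marker, did not pass the filter. Which host cells carry the members' reads, and the part of these cell shifts in the members' differences, were not tested.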

How the data were processed

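Per the submitters' processing notes, reads were handled with CASAVA 1.8.2, TopHat2 and HTSeq on mouse build mm10. The authors deposited whole-number counts per gene symbol for 16 libraries (TruSeq RNA kit, which does not mark strand). The sources used here do not give settings, annotation release or the handling of human reads. For 1327 symbols the 8 panobinostat-given libraries hold a dot and no value, and the other 23354 were analysed. The reason is not known, and it cannot be told apart from panobinostat in the main comparison. Library totals are sums of all given values, so counts of the 1327 symbols enter only the totals of libraries without panobinostat. The labels number each mouse once, so p-values measure the spread between mice.

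Counts were fitted with edgeR 4.0.16 in R 4.3.3 (TMM, filterByExpr, quasi-likelihood F test, 1 mean per group, Benjamini-Hochberg over 15610 genes within each of 8 contrasts). The common biological coefficient of variation was 0.183. The SE is the size of the log2 difference over the root of F. Mean log2 CPM used a prior count of 2. Alternatives were RLE and total-count scaling, no filter, a luminal score as covariate, only the groups compared, limma 3.58.1 voom, DESeq2 1.42.0 and leaving out each mouse. An adipocyte score as covariate, another library total and voom with sample weights were added after seeing the data. The scripts were tested on simulated data. Gene coordinates and exon lengths come from GENCODE M21, and promoters from RefSeq on GRCm38.p6, 1 start per gene.

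The members, lists and tests were chosen with earlier results of these data known. Genes named are the Mcm2-7 genes, Pcna, Mki67, Top2a, Ccnb1, Cdk1, Foxm1, E2f1, every called member, the 3 members of smallest p in each role, and, in each further list, the called genes or those of smallest p. A gene that this rule selects from a further list is not reported here. Rrm1, Tyms, Cdt1, Cdc6, Cks2, Plk1, Ccna2, Ccnb2 and Ccne2 were chosen after their values were seen.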

Additional observations from a re-analysis of the deposited data

Results flagged for a closer look

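Among 212 sets of 4 libraries, 11 held a library whose gap to the nearest of the others was far larger, by Dixon's criterion, than the spread of those others. Chance gives about 1 in 20, so the count of 11 is near that of chance. Ttk was at 4.26 CPM in vehicle mouse 29, with the others at 7.74 to 8.25 CPM. In vehicle mouse 6, Mcm2 was at 25.6 CPM (others 33.0 to 34.2 CPM) and Mcm4 at 39 CPM (others 57.0 to 59.7 CPM). The mean log2 CPM of replication genes in that mouse was 4.085, with the others at 4.36 to 4.41. Replication minus mitosis was 0.64 in vehicle mouse 29 (others 0.29 to 0.34). In trastuzumab mouse 12, Bub1b was at 8.63 CPM (others 10.5 to 10.8 CPM) and Cdt1 at 6.71 CPM (others 9.84 to 10.2 CPM). Hmmr reached 25.6 CPM in panobinostat mouse 8, with the others at 10.8 to 12.5 CPM. In combination mouse 2, Cenpf was at 25.9 CPM (others 10.4 to 12.8 CPM), Hmmr at 16.9 CPM (others 12.6 to 13.2 CPM) and E2f1, lower than the others there, at 19.3 CPM (others 22.8 to 23.5 CPM). No cause was tested.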

How the results depend on the processing

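Percentages in brackets are the shares of all genes called higher in the same fit. With panobinostat given against not given, 13 members were called (2.13%). The count was also 13 under RLE scaling (2.11%), total-count scaling (2.25%) and totals over fully listed genes (2.08%). It was 18 by DESeq2 (2.54%), 12 by limma voom (1.94%), 15 with sample weights (2.53%) and 11 without a filter (1.25%). When 1 mouse was left out it was 5 to 16 (1.47% to 2.03%). The luminal score as a covariate left 8 (1.89%) and the adipocyte score gave 36 (3.65%). For panobinostat against vehicle (0.141%), 0 members became 1 by DESeq2 (0.666%) and 5 with the adipocyte score (0.717%). For the combination against trastuzumab (0.474%), 0 became 3 by DESeq2 (1.07%) and by limma voom with sample weights (0.73%). It was 6 with the adipocyte score (0.807%) and 0 to 1 when 1 mouse was left out (0.019% to 0.917%). For the combination against vehicle (1.84%), 2 became 0 with the luminal score (0.833%) and 7 with the adipocyte score (2.99%). It was 1 to 2 when 1 mouse was left out (1.1% to 2.13%). The causes were not tested. When 1 mouse was left out, 5 uncalled members changed sign between the combination and vehicle (Plk1, Ccne2, Bub1b, Kif20a and Ccnb1, the last from -0.020 to 0.29), as did Cdkn2d of the inhibitors (-0.20 to 0.23, with -0.062, -0.036 and -0.024 between). No paired analysis was possible because the labels number each mouse once, and no number is shared between groups. Low counts limit Cdc6 and Ccne1 most, and 4 mice a group limit all single group comparisons.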
